A study of Mus musculus with 15 samples.

Results

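The endothelin, kinin, prostanoid, nitric oxide and substance P genes of liver endothelium were followed here as a set of 10 genes among the 21173 genes with a symbol on the array. They are Edn1, Ednrb, Ece1, Nos3, Ptgs1, Ptgs2, Ptgis, Ace, Bdkrb2 and Tacr1, and 12 of the 55681 probes mapped to them through the probe's accession. Each gene was measured on 15 one-colour Agilent arrays of endothelial cells sorted from adult mouse liver, 3 arrays for each of 5 sorted populations. The populations were EC-SP and EC-MP cells, both from mice 8 weeks old, and the CD157+CD200+, CD157-CD200+ and CD157-CD200- subsets, defined by the presence or absence of 2 surface proteins. The labels abbreviate the first pair to SP and MP, read here as side and main population, terms that refer to the export of a fluorescent dye. No treatment or mutation is named for any group, and strain, sex and the gate used for endothelium are not given in the sources used here. Replicates are described as independent samples but not as separate animals, so the p-values measure the spread between these samples. In sorted bulk samples, fewer cells that express a gene and less RNA per cell cannot be told apart.

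Levels are on a log2 scale on which 0 is the 75th percentile of the processed signals of the same array, and a step of 1 is a doubling. The signal at the 75th percentile ranged between 156.67 and 298.22 intensity units, and 57.25% to 69.39% of spots were well above background. Arrays of 1 group correlated across features at r between 0.9592 and 0.9729. EC-SP and EC-MP arrays went through 1 scanner and the subset arrays through another with a different software version. Tests therefore stay within each set, except for the test of the difference between the 2 sorts. Levels are not ranked across the sets. The sort genes followed the labels: Bst1, which encodes CD157, averaged 2.79 in EC-SP against -1.55 in EC-MP, and 2.57, -2.41 and -3.17 in CD157+CD200+, CD157-CD200+ and CD157-CD200- cells. Cd200 averaged 4.11 in EC-SP against 0.72 in EC-MP, and 4.43, 3.37 and -4.42 in the same 3 subsets. Each of 10 general endothelial markers, Pecam1 and Cdh5 among them, was well above background on at least 1 array of every group.

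Endothelium sets vessel tone through secreted mediators. Endothelin-1 is made as a precursor that is cut by an endothelin-converting enzyme and constricts vessels through receptors on smooth muscle, while the endothelial ETB receptor clears it and triggers relaxing signals. Nitric oxide and prostacyclin relax smooth muscle, nitric oxide through soluble guanylate cyclase. Bradykinin and substance P, acting on their endothelial receptors, stimulate the release of nitric oxide and prostacyclin, and angiotensin-converting enzyme degrades bradykinin while it forms angiotensin II. In the liver these mediators act on portal inflow vessels and on the sinusoids, the fenestrated capillaries of the lobule.

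To show the control regions of the members that differed most, the 250 bases upstream of the annotated start are printed for 4 of them, from RefSeq on build GRCm38.p6, plus strand. Edn1 and Ace separated the CD200+ subsets from CD157-CD200- cells, and Bdkrb2 and Tacr1 separated CD157+CD200+ cells and EC-SP from the other groups. Of the 10 members 8 matched the promoter table, with 12 start sites. Nos3 and Ptgis had no entry. Capitals mark CACCC on either strand (GGGTG as printed), the core recognised by Krüppel-like factors, a family that includes flow-responsive endothelial regulators.
Edn1, chr13:42301226-42301475: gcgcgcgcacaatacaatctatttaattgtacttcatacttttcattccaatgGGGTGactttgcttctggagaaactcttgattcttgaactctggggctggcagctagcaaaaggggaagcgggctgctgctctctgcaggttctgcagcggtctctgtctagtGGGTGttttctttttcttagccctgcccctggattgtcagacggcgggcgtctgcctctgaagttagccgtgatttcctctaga
Ace, the first of its 2 windows, chr11:105967698-105967947: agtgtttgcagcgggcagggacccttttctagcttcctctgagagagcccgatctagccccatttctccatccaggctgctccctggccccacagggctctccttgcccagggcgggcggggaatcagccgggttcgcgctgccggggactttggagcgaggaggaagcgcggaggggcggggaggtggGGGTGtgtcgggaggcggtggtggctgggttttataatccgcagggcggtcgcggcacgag
Bdkrb2, chr12:105562922-105563171: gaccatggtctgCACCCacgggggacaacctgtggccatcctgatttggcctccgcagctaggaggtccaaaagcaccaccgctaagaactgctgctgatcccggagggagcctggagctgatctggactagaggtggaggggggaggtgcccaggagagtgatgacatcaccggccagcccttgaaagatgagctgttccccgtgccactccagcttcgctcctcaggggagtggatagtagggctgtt
Tacr1, chr6:82402225-82402474: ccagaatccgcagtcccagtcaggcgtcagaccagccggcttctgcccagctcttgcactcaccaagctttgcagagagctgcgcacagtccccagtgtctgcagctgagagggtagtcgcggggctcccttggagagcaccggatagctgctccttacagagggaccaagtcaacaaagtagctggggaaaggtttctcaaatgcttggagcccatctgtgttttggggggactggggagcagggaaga
The Edn1 window held CACCC at 2 places, the Ace and Bdkrb2 windows at 1 each, and the Tacr1 window at none. Over all 12 windows of members CACCC occurred in 8, against 52.0% of the 32851 promoter windows of the same length. The GATA motif (AGATAA or TGATAA) and the AP-1 motif (TGANTCA), both searched on both strands, occurred in 0 of the 12 windows, against 16.6% and 6.7% of all windows. GGGCGG, the GC box, was in 4 windows, among them Ace, against 32.7%, and TATAAA was in 1, that of Ace, on the minus strand, against 12.4%. A match of letters is a description and not a binding site.

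In EC-SP set against EC-MP, 5 of the 10 genes rose and 1 fell (limma, Benjamini-Hochberg adjusted p under 0.05 over 23971 features). Over all features 9.15% were called higher and 7.39% lower. Tacr1, Bdkrb2, Ptgs2, Ace and Ptgis rose, and Ptgs1 fell. In CD157+CD200+ set against CD157-CD200- cells 8 of 10 rose and 0 fell, against 8.12% higher and 7.11% lower over all 23701 features (29.2% called in either direction with the replicate block, which matches arrays of 1 slide). In CD157-CD200+ set against CD157-CD200- cells 6 of 10 rose and 0 fell, against 6.31% higher and 5.52% lower over all features (22.3% with the block). Between the CD200+ subsets, CD157+CD200+ set against CD157-CD200+, 3 of 10 rose and 0 fell, against 0.802% higher and 0.245% lower over all features (3.06% with the block, 2.04% higher). Without the arrays of the third subset slide 7, 3 and 2 members were called in these 3 comparisons. The median log2 difference of the 10 genes was 1.41, 2.34, 0.78 and 0.39 in the 4 comparisons in that order, while the median over all features lay between -0.01 and 0.02. All 10 passed the filter on dim probes in both fits, but Bdkrb2 and Tacr1 passed through EC-SP and CD157+CD200+ cells alone, Ptgs2 passed in the first set through EC-SP alone, and Ptgis passed in the subsets through CD157+CD200+ cells alone. Passing through 1 group alone favours a difference without forcing it, since Ptgis was not called among the subsets. The counts therefore describe these genes and are no separate support. The same limit holds for pathway genes named below. In the first set Ptger4, Pla2g4a and Mas1 passed through EC-SP alone and Kng1 through EC-MP alone. In the subsets Ptger4 passed through CD157-CD200+ cells alone, Mas1 through CD157+CD200+ cells alone and Kng1 through CD157-CD200- cells alone. Ednra and Gucy1a1 passed there through the CD200+ subsets.

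**Figure D1:**
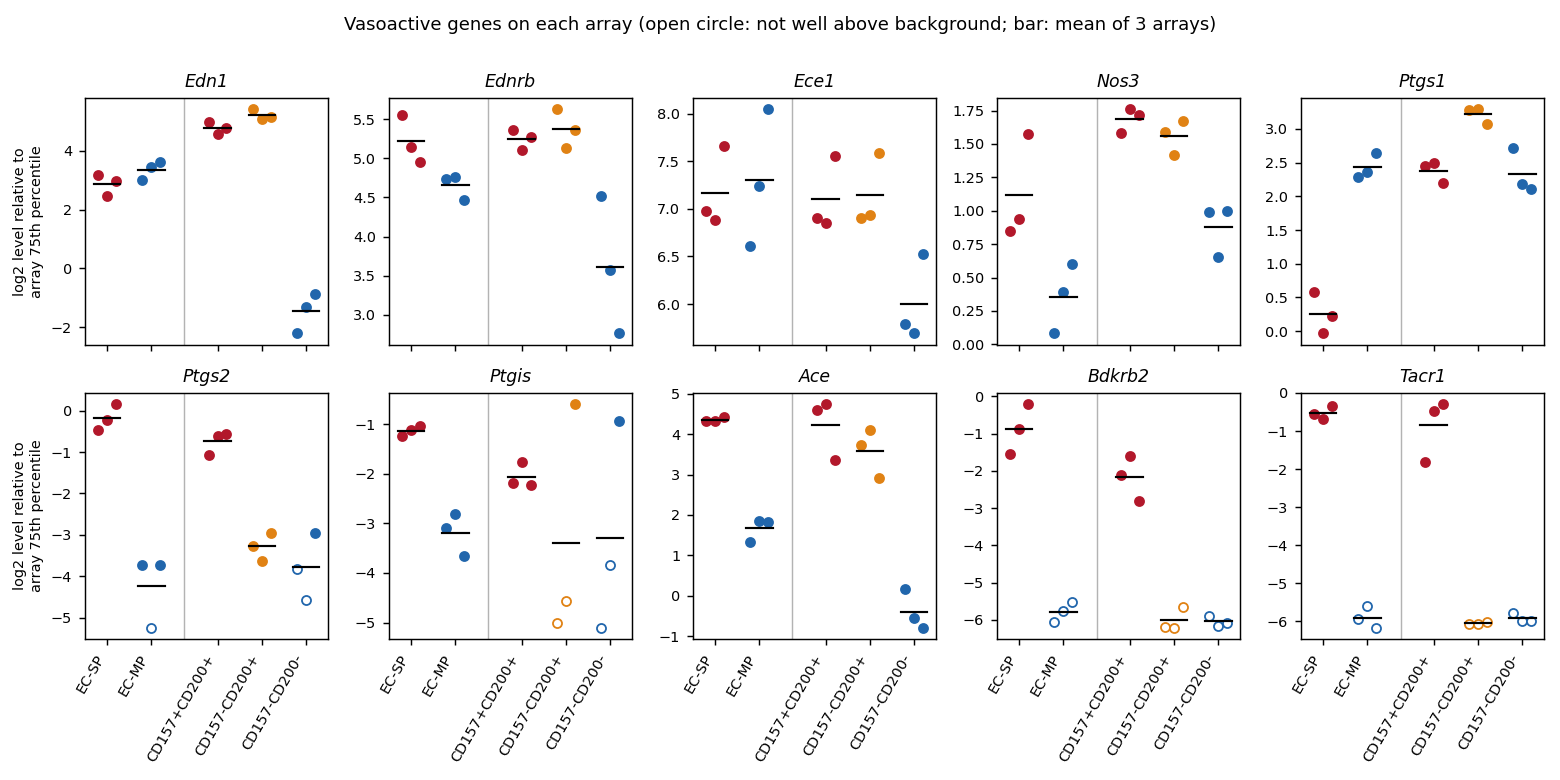
Log2 level of each member gene (vertical axes, relative to the array's 75th percentile) on the 3 arrays of each group, with EC-SP and EC-MP left of the vertical line and the CD157 and CD200 subsets right of it. Open circles mark arrays on which the probe was not well above background, and bars are means of 3 arrays. Bdkrb2 and Tacr1 were well above background on the EC-SP and CD157+CD200+ arrays and on none of the other 9.

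Edn1, the gene of the endothelin-1 precursor, was high wherever CD200 was present in the antibody sort. Its log2 level was 4.98, 4.58 and 4.76 on the CD157+CD200+ arrays, 5.42, 5.08 and 5.14 on the CD157-CD200+ arrays, and -2.21, -1.30 and -0.88 on the CD157-CD200- arrays. Every CD200+ array lay more than 5 log2 units above every CD157-CD200- array. The difference was 6.24 ± 0.31 (SE, n = 3 per group) for CD157+CD200+ minus CD157-CD200- cells, which is 75.4-fold (limma adjusted p = 1.16e-06). For CD157-CD200+ minus CD157-CD200- cells it was 6.68 ± 0.31, which is 102-fold (adjusted p = 1.01e-06). Between the CD200+ subsets the CD157+CD200+ arrays were the lower ones without overlap, by -0.44 ± 0.31 (95% confidence interval -1.14 to 0.25, adjusted p = 0.88).

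The same gene did not separate EC-SP from EC-MP. Edn1 stood at 3.18, 2.45 and 2.97 in EC-SP, against 3.00, 3.44 and 3.62 in EC-MP. These values overlapped, and the difference was -0.49 ± 0.28 (95% confidence interval -1.11 to 0.14, adjusted p = 0.279). Both populations thus had an Edn1 level far above the 75th percentile of their arrays.

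Ece1, which encodes the main endothelin-converting enzyme of endothelium, was lower in CD157-CD200- cells and varied by slide. On the subset arrays it measured 6.90, 6.85 and 7.55 in CD157+CD200+ cells, 6.91, 6.94 and 7.59 in CD157-CD200+ cells, and 5.79, 5.69 and 6.52 in CD157-CD200- cells. The third array was the highest in each subset, and the CD157-CD200- arrays lay below all others. CD157+CD200+ cells exceeded CD157-CD200- cells by 1.10 ± 0.30 (adjusted p = 0.0368) and CD157-CD200+ cells exceeded them by 1.14 ± 0.30 (adjusted p = 0.0374). With the replicate block, in which the slides are matched, both had adjusted p of 0.000286 and 0.000309. Without the block these calls were fragile: they were lost in 7 and in 6 of the 9 fits that left out 1 array, under quantile normalization, without the filter on dim probes and in 1 fit over all 15 arrays (adjusted p up to 0.129). In EC-SP, Ece1 measured 6.97, 6.88 and 7.66, against 6.62, 7.24 and 8.05 in EC-MP, a difference of -0.13 ± 0.38 (95% confidence interval -0.99 to 0.73, adjusted p = 0.875).

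Ednrb encodes the ETB receptor. Its levels were 5.37, 5.10 and 5.28 in CD157+CD200+ cells, 5.63, 5.13 and 5.37 in CD157-CD200+ cells, and 4.52, 3.57 and 2.76 in CD157-CD200- cells. The CD200+ subsets overlapped each other and both lay above the CD157-CD200- arrays, which spread over a wider range. Ednrb rose by 1.63 ± 0.38 in CD157+CD200+ cells (3.10-fold, adjusted p = 0.0155) and by 1.76 ± 0.38 in CD157-CD200+ cells (3.39-fold, adjusted p = 0.0129), each against CD157-CD200- cells. Both calls held with the replicate block (adjusted p = 0.00963 and 0.00861). In fits without the block they were lost when replicate 1 of the CD200+ subset in question was left out (adjusted p = 0.0568 and 0.0554). They were also lost there without the third slide (0.0984 and 0.0886). A second Ednrb probe gave 1.84 ± 0.40 and 1.88 ± 0.40. In EC-SP the levels of 5.56, 5.14 and 4.95 lay above the 4.73, 4.76 and 4.46 of EC-MP without overlap, but the difference of 0.57 ± 0.24 was not called (95% confidence interval 0.02 to 1.11, adjusted p = 0.151). With normexp background correction this difference was called (adjusted p = 0.0433).

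Ednra, the gene of the ETA receptor that vascular smooth muscle uses to contract, is not among the 10 genes but belongs to the endothelin list. It was not well above background on any EC-SP, EC-MP or CD157-CD200- array, and it was well above background on all 3 arrays of both CD200+ subsets. Over CD157-CD200- cells the excess was at least 1.48-fold in CD157+CD200+ cells (limma adjusted p = 0.00585) and at least 1.62-fold in CD157-CD200+ cells (adjusted p = 0.00504). Each such bound divides the mean of the higher group by the dimmest level that the other group's arrays could still call, or by the probe's own signal where that was larger, and is printed with the adjusted p of the fit. Of the 10 genes on the endothelin list 5 were tested in each set. Apart from Edn1, Ece1 and Ednrb, 1 of 2 rose in each comparison of a CD200+ subset with CD157-CD200- cells, and neither was called in EC-SP against EC-MP or between the CD200+ subsets. Over all features 8.12% rose in CD157+CD200+ and 6.31% in CD157-CD200+ cells, each against CD157-CD200- cells.

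Nos3, the gene of endothelial nitric oxide synthase, differed little in size but in a regular way. It measured 1.58, 1.76 and 1.72 in CD157+CD200+ cells, 1.59, 1.42 and 1.67 in CD157-CD200+ cells, and 0.99, 0.65 and 1.00 in CD157-CD200- cells. The CD157-CD200- arrays lay below all 6 CD200+ arrays, which overlapped each other. Nos3 rose by 0.81 ± 0.17 in CD157+CD200+ cells (1.75-fold, adjusted p = 0.0108) and by 0.68 ± 0.17 in CD157-CD200+ cells (1.60-fold, adjusted p = 0.0308), each against CD157-CD200- cells. With the replicate block both calls held (adjusted p = 0.00413 and 0.00991). Without the block, the second of these calls was lost in 5 of the 9 fits without 1 array and both were lost without the third slide (adjusted p = 0.0587 and 0.137). The second was also lost without the filter on dim probes (0.0757) and in the fit over 15 arrays (0.0683). A second Nos3 probe gave 0.77 ± 0.22, which was called (adjusted p = 0.0449), and 0.64 ± 0.22, which was not (adjusted p = 0.106).

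In EC-SP, Nos3 stood at 0.85, 0.94 and 1.57, against 0.08, 0.39 and 0.60 in EC-MP. No EC-SP array fell below an EC-MP array. The difference was 0.76 ± 0.27 with a 95% confidence interval of 0.15 to 1.37. It missed the threshold without the replicate block (adjusted p = 0.0902) and passed it with the block (adjusted p = 0.0325). The same difference also passed with normexp background correction (adjusted p = 0.041) and in 1 fit over all 15 arrays (adjusted p = 0.0241). The second Nos3 probe gave 0.53 ± 0.32, which was not called (limma adjusted p = 0.303). Between CD157+CD200+ and CD157-CD200+ cells Nos3 differed by 0.13 ± 0.17 (95% confidence interval -0.26 to 0.52, adjusted p = 1.0).

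The pair of cyclooxygenase genes, which make the common precursor of all prostanoids, moved in opposite directions in EC-SP. Ptgs2, the inducible cyclooxygenase, measured -0.46, -0.23 and 0.16 in EC-SP, against -3.73, -5.26 and -3.72 in EC-MP, where 2 of 3 arrays were well above background. Ptgs2 was higher in EC-SP by 4.06 ± 0.41 (adjusted p = 0.000355), a value that rests in part on the EC-MP signal at background. Ptgs1, the constitutive cyclooxygenase, measured 0.57, -0.03 and 0.22 in EC-SP, against 2.29, 2.36 and 2.64 in EC-MP. It fell by 2.18 ± 0.24 on the log2 scale in EC-SP, so that it was 4.53-fold lower there (adjusted p = 0.000549). Neither gene overlapped between the populations.

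In the antibody sort Ptgs2 followed CD157. It measured -1.07, -0.60 and -0.55 in CD157+CD200+ cells, -3.26, -3.63 and -2.95 in CD157-CD200+ cells, and -3.83, -4.57 and -2.96 in CD157-CD200- cells, where 1 of 3 arrays was well above background. The CD157+CD200+ arrays lay above all others, and the CD157- subsets overlapped. CD157+CD200+ exceeded CD157-CD200- cells by 3.05 ± 0.38 (adjusted p = 0.00039), a value that rests in part on signals at background, and CD157-CD200+ cells by 2.54 ± 0.38 (5.80-fold, adjusted p = 0.0122). The second of these calls held with the replicate block (adjusted p = 0.00977). In fits without the block it was lost without replicate 1 or 2 of CD157-CD200+ and without replicate 2 or 3 of CD157+CD200+ (adjusted p between 0.0512 and 0.0656), and without the third slide (0.0595). CD157-CD200+ cells differed from CD157-CD200- cells by 0.51 ± 0.38 (95% confidence interval -0.33 to 1.35, adjusted p = 0.533).

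Ptgs1 was highest in the subset that carries CD200 but not CD157. Its levels were 2.45, 2.50 and 2.21 in CD157+CD200+ cells, 3.28, 3.29 and 3.07 in CD157-CD200+ cells, and 2.72, 2.19 and 2.10 in CD157-CD200- cells. CD157-CD200+ arrays lay above the others, which overlapped. Ptgs1 rose by 0.88 ± 0.21 in CD157-CD200+ set against CD157-CD200- cells (1.84-fold, adjusted p = 0.0202), a call that was lost in 4 of the 9 fits without 1 array (without replicate 1 or 2 of CD157-CD200+ or replicate 2 or 3 of CD157-CD200-), without the third slide (0.0984) and without the filter (0.0528). The fits that lost this call had no replicate block, and with the block the call held (adjusted p = 0.00526). Its difference of -0.84 ± 0.21 between CD157+CD200+ and CD157-CD200+ cells missed the threshold without the block (adjusted p = 0.126) and passed with it (adjusted p = 0.032). With normexp background correction that difference passed as well (adjusted p = 0.0138). CD157+CD200+ and CD157-CD200- cells differed by 0.05 ± 0.21 (95% confidence interval -0.42 to 0.51, adjusted p = 0.941).

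Ptgs1 is also abundant in platelets, so the platelet markers are given beside it. Of the 8 platelet and megakaryocyte markers 4 were tested in each set. Pf4 was called lower in EC-SP set against EC-MP (-3.10 ± 0.72, adjusted p = 0.019), as Ptgs1 was. Pf4 was also lower in CD157+CD200+ set against CD157-CD200- cells (-4.10 ± 0.71, adjusted p = 0.0034), where Ptgs1 was not called, and in CD157-CD200+ set against CD157-CD200- cells (-2.99 ± 0.71, adjusted p = 0.023), where Ptgs1 was higher. Pf4 was not well above background on EC-SP replicates 2 and 3 or on CD157+CD200+ replicate 1. Its sizes in EC-SP and CD157+CD200+ cells thus rest in part on signals at background. No other platelet marker was called in these comparisons. Gp5 was not well above background in any group, and the summed level of the 8 markers was 5.06 to 5.61 in EC-SP against 5.0 to 5.45 in EC-MP. Most of that sum was Gp1bb, which was called in no comparison. The part of platelet RNA in the Ptgs1 values was not tested.

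Ptgis, which encodes prostacyclin synthase, was higher in EC-SP and could not be ranked among the subsets. It measured -1.25, -1.12 and -1.05 in EC-SP, against -3.09, -2.82 and -3.66 in EC-MP, without overlap. The difference was 2.05 ± 0.26 (4.15-fold, adjusted p = 0.00103), and it was not called in 1 fit over all 15 arrays (adjusted p = 0.19). On the subset arrays the level was -2.20, -1.77 and -2.22 in CD157+CD200+ cells, -5.0, -4.56 and -0.60 in CD157-CD200+ cells, and -5.11, -3.83 and -0.93 in CD157-CD200- cells. Arrays 1 and 2 of both CD157- subsets were not well above background, and array 3 of both exceeded every CD157+CD200+ array. CD157+CD200+ minus CD157-CD200- was thus 2.92, 2.07 and -1.29 on the 3 slides, or 1.23 ± 1.23 over all (adjusted p = 0.623). Without the third slide, a choice made after this pattern was seen, it was 2.49 (adjusted p = 0.018). CD157+CD200+ minus CD157-CD200+ gave 2.81, 2.80 and -1.63 on the slides and 1.33 ± 1.23 over all (adjusted p = 0.973).

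Ace, the gene of angiotensin-converting enzyme, was higher in EC-SP and in both CD200+ subsets. It measured 4.34, 4.33 and 4.42 in EC-SP, against 1.33, 1.84 and 1.83 in EC-MP, a difference of 2.70 ± 0.23 (6.49-fold, adjusted p = 0.000156). In the subsets it measured 4.60, 4.75 and 3.36 in CD157+CD200+ cells, 3.74, 4.12 and 2.91 in CD157-CD200+ cells, and 0.17, -0.55 and -0.81 in CD157-CD200- cells. The 2 CD200+ subsets overlapped, with the third array the lowest of each, and both lay above all CD157-CD200- arrays. Ace rose by 4.63 ± 0.44 in CD157+CD200+ cells (24.8-fold, adjusted p = 7.09e-05) and by 3.98 ± 0.44 in CD157-CD200+ cells (15.8-fold, adjusted p = 0.000245), each against CD157-CD200- cells. The CD200+ subsets differed by 0.65 ± 0.44 (95% confidence interval -0.34 to 1.63, adjusted p = 0.868), with CD157+CD200+ higher on all 3 slides.

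Bdkrb2, which encodes the bradykinin B2 receptor, was measured above background only in EC-SP and CD157+CD200+ cells. Its level was -1.55, -0.88 and -0.21 in EC-SP, and it was not well above background on the EC-MP arrays, whose signals corresponded to -6.06, -5.75 and -5.52. EC-SP was at least 8.26-fold higher (adjusted p = 5.78e-05). CD157+CD200+ arrays measured -2.11, -1.60 and -2.81, while none of the 6 CD157- arrays was well above background, with signals between -6.22 and -5.64. CD157+CD200+ cells were at least 3.87-fold higher than CD157-CD200+ cells (adjusted p = 0.000696) and at least 3.60-fold higher than CD157-CD200- cells (adjusted p = 1.85e-05). Between the CD157- subsets no fold can be given, since neither was above background.

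Tacr1, which encodes the NK1 receptor for substance P, had a similar pattern. Its level was -0.56, -0.69 and -0.35 in EC-SP, and it was not well above background in EC-MP, with signals of -5.92, -5.60 and -6.18. EC-SP was at least 10.5-fold higher (adjusted p = 1.59e-05). CD157+CD200+ arrays measured -1.80, -0.47 and -0.29, and the 6 CD157- arrays were not well above background, with signals between -6.06 and -5.77. CD157+CD200+ cells were at least 9.65-fold higher than CD157-CD200+ cells (adjusted p = 0.000492) and at least 8.99-fold higher than CD157-CD200- cells (adjusted p = 8.06e-06). Of the 6 genes on the tachykinin list 3 were tested in each set, and Tacr1 alone was called. The genes of its ligand precursors are on that list.

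**Figure D2:**
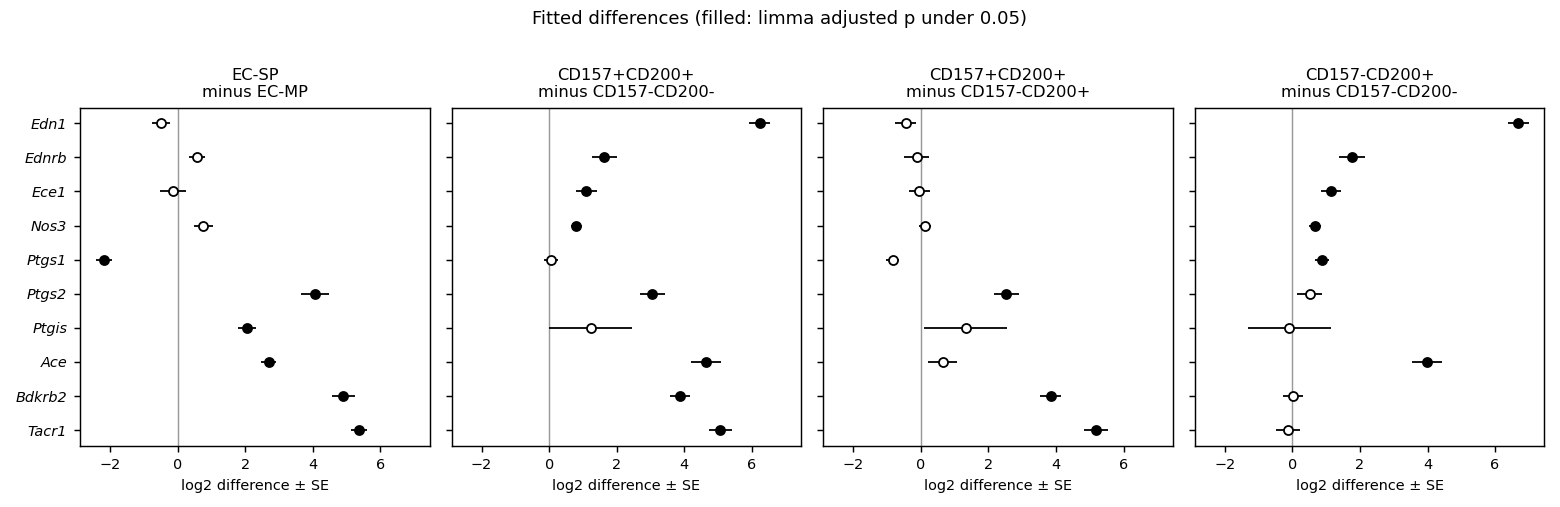
Fitted log2 difference with its standard error (horizontal axes) for each member gene in the 4 comparisons, from limma with 3 arrays per group. Filled points passed an adjusted p of 0.05. Tacr1, Bdkrb2 and Ptgs2 passed in the 3 panels that set EC-SP or CD157+CD200+ cells against EC-MP or a CD157- subset, and Edn1, Ednrb, Ece1 and Nos3 passed in the 2 panels against CD157-CD200- cells.

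Among the 3 subsets limma's moderated F test called 9 of the 10 genes, all except Ptgis (adjusted p = 0.806), against 13.9% of all features (26.8% with the replicate block). It also called 9 with the block, but 6 to 9 in fits that left out 1 array. Without the filter on dim probes it called 6, losing Ece1 (adjusted p = 0.109), Nos3 (0.0553) and Ptgs1 (0.0651). The order of the subset means fell into a few types. Tacr1, Bdkrb2 and Ptgs2 were highest in CD157+CD200+ cells, and the other 2 subsets did not differ beyond their spread. Edn1, Ednrb, Ece1, Ace and Nos3 were lowest in CD157-CD200- cells, and the 2 CD200+ subsets did not differ beyond their spread by the test. Ptgs1 was highest in CD157-CD200+ cells.

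The EC-SP minus EC-MP difference and the CD157+CD200+ minus CD157-CD200- difference share no array, and their own difference was tested in 1 fit of 15 arrays. The 2 sets also differ in scanner, slides and software version, and age is given for EC-SP and EC-MP alone. An effect of the sort cannot be told apart from these. The difference of differences was called for Edn1 and Ptgs1, 2 of 10 genes, both lower in the first contrast, while 5.04% of 25062 features were called and 2.96% were called lower (12.7% called and 6.42% called lower with the replicate block). Edn1 differed by -0.49 in the first contrast and by 6.24 in the second, so that the difference of differences was -6.72 ± 0.44 (adjusted p = 5.17e-07). Ptgs1 differed by -2.18 and by 0.05, which gave -2.22 ± 0.31 (adjusted p = 0.000575). Ace, with 2.70 and 4.63, gave -1.93 ± 0.54 and missed the threshold (adjusted p = 0.0563), but passed with the block (0.00727), under quantile normalization (0.0476), the percentile over detected probes (0.0485), the series table (0.0447) and the filter for probes detected on every array (0.0345), and in 3 of the 15 fits without 1 array. It did not pass with normexp background correction (0.0666), without the filter on dim probes (0.11) or with the mean over a gene's probes. Ece1, with -0.13 and 1.10, gave -1.23 ± 0.52 (adjusted p = 0.239) and also passed with the block (0.00827).

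For the other members the 2 sorts were not told apart in this fit, though some passed in an alternative. With normexp background correction Ptgs2 (0.78, limma adjusted p = 0.0422) and Bdkrb2 (1.15, adjusted p = 0.0395) were called. Ednrb was called without replicate 1 of CD157-CD200- cells (-1.52, adjusted p = 0.037). The values that follow are those of the fit itself. Nos3 differed by 0.76 and 0.81, which gave -0.04 ± 0.31 (95% confidence interval -0.71 to 0.62). Ptgs2 gave 1.01 ± 0.61 (interval -0.30 to 2.32) and Ednrb -1.07 ± 0.48 (interval -2.09 to -0.04, adjusted p = 0.275). Tacr1 gave 0.31 ± 0.44 and Bdkrb2 1.03 ± 0.48, but both rest on signals at background in EC-MP and CD157-CD200- cells. Ptgis gave 0.82 ± 1.45.

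**Figure D3:**
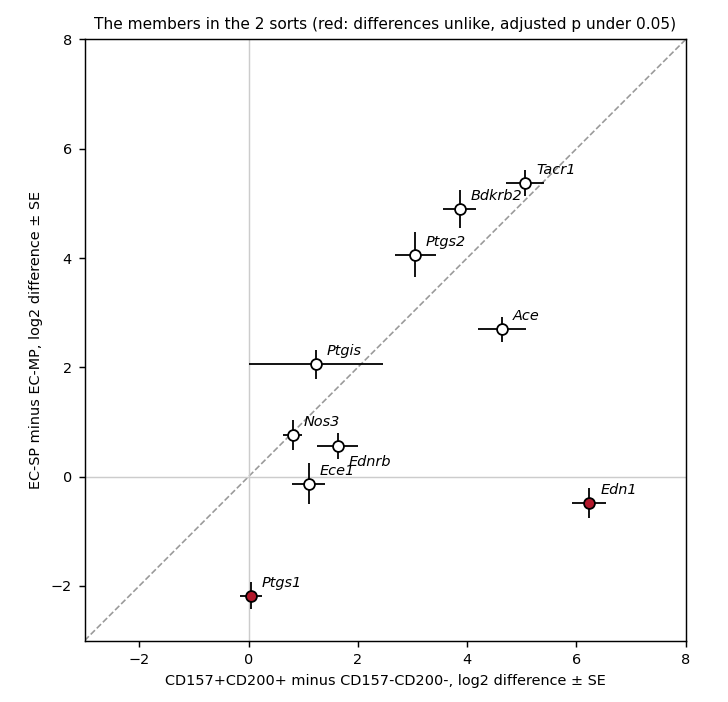
Each point is a member gene, with its EC-SP minus EC-MP log2 difference (vertical axis) and its CD157+CD200+ minus CD157-CD200- log2 difference (horizontal axis), each with its standard error from limma. The dashed line marks equal differences, and the values of Bdkrb2 and Tacr1 rest on signals at background in EC-MP and CD157-CD200- cells. Edn1 (-0.49 and 6.24) and Ptgs1 (-2.18 and 0.05), drawn in red, are the genes whose differences were unlike at an adjusted p under 0.05.

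Of 23 genes on the prostanoid list 17 were tested in each set. Ptgs1, Ptgs2 and Ptgis aside, 2 of 14 rose and 2 fell in EC-SP against EC-MP, and 1 rose and 2 fell in each comparison of a CD200+ subset with CD157-CD200- cells. Over all features 9.15% rose and 7.39% fell in EC-SP, 8.12% and 7.11% in CD157+CD200+ and 6.31% and 5.52% in CD157-CD200+ cells. These counts are thus no trait of the list. Ptger4, the gene of the prostaglandin receptor EP4, was well above background on all EC-SP arrays and on no EC-MP array, an excess of at least 2.60-fold (adjusted p = 0.000156). In the subsets it was well above background on all CD157-CD200+ arrays, on 1 CD157+CD200+ array and on no CD157-CD200- array. There it was called for CD157-CD200+ against CD157-CD200- cells (adjusted p = 0.00949) and not for CD157+CD200+ against CD157-CD200- cells (adjusted p = 0.208). Tbxa2r, the thromboxane receptor, fell by 1.89 ± 0.23 in EC-SP (adjusted p = 0.000803), and it fell by 2.19 ± 0.33 in CD157+CD200+ cells (adjusted p = 0.00144) and by 1.91 ± 0.33 in CD157-CD200+ cells (adjusted p = 0.00406), each against CD157-CD200- cells. Hpgd, which inactivates prostaglandins, fell by 1.74 ± 0.44 in EC-SP (adjusted p = 0.0269). Its levels of 0.55, -0.12 and 0.20 in CD157+CD200+ cells lay 3.23 ± 0.21 below the 3.66, 3.20 and 3.46 in CD157-CD200- cells (adjusted p = 6.18e-06). Hpgd was lower by 3.46 ± 0.21 in CD157-CD200+ cells as well (adjusted p = 5.37e-06). Pla2g4a, the phospholipase that releases arachidonic acid, rose by 1.88 ± 0.47 in EC-SP (adjusted p = 0.0248) and by 1.96 ± 0.40 in CD157+CD200+ set against CD157-CD200- cells (adjusted p = 0.00809). Both values rest in part on signals at background, on replicate 2 of EC-MP and replicate 2 of CD157-CD200- cells.

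Of 27 genes on the nitric oxide list 22 were tested in EC-SP against EC-MP, where 6 of the 21 other than Nos3 rose and 4 fell. In CD157+CD200+ set against CD157-CD200- cells 7 of 22 other than Nos3 rose and 4 fell, in CD157-CD200+ set against CD157-CD200- cells 7 rose and 3 fell, and between the CD200+ subsets 1 rose. Over all features the shares higher and lower were 9.15% and 7.39%, 8.12% and 7.11%, 6.31% and 5.52%, and 0.802% and 0.245%, in that order. Gucy1a1, a subunit of soluble guanylate cyclase, measured 2.10, 1.96 and 2.00 in EC-SP against -1.57, -2.38 and -2.58 in EC-MP, a difference of 4.20 ± 0.29 (adjusted p = 5.41e-05). In the subsets it measured 3.23, 2.88 and 2.30 in CD157+CD200+ cells and -0.23, -0.29 and 0.03 in CD157-CD200+ cells, and it was not well above background in CD157-CD200- cells. The 3 subsets formed 3 steps: CD157+CD200+ exceeded CD157-CD200+ cells by 2.97 ± 0.26 (adjusted p = 0.001), and they were at least 109-fold and at least 13.9-fold higher than CD157-CD200- cells (adjusted p = 2.75e-07 and 7.96e-06).

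Cav1, whose product caveolin-1 holds nitric oxide synthase inactive, rose by 2.00 ± 0.24 in EC-SP (adjusted p = 0.000725). It rose by 3.19 ± 0.41 in CD157+CD200+ cells (adjusted p = 0.000501) and by 2.20 ± 0.41 in CD157-CD200+ cells (adjusted p = 0.00595), each against CD157-CD200- cells. The difference between the CD200+ subsets, 0.99 ± 0.41, was called with the block alone (adjusted p = 0.516 without it and 0.00848 with it). Gucy1b1, the other subunit of the cyclase, rose by 1.59 ± 0.37 in EC-SP (adjusted p = 0.0188). It rose by 1.96 ± 0.21 in CD157+CD200+ (adjusted p = 0.000156) and by 1.18 ± 0.21 in CD157-CD200+ cells (adjusted p = 0.0047), each against CD157-CD200- cells. Pde3a, a phosphodiesterase that cyclic GMP inhibits, rose by 1.76 ± 0.34 in EC-SP (adjusted p = 0.00809). Against CD157-CD200- cells it rose by 1.77 ± 0.25 in CD157+CD200+ (adjusted p = 0.00104) and by 1.69 ± 0.25 in CD157-CD200+ cells (adjusted p = 0.00172). The arginine carrier Slc7a1 rose by 2.45 ± 0.27 in EC-SP (adjusted p = 0.000478). It rose by 1.60 ± 0.20 in CD157+CD200+ (adjusted p = 0.000406) and by 1.09 ± 0.20 in CD157-CD200+ cells (adjusted p = 0.0054), each against CD157-CD200- cells. Gch1, which makes the cofactor tetrahydrobiopterin, rose by 1.67 ± 0.22 in EC-SP (adjusted p = 0.00108), while Gchfr, which encodes the regulator that restrains it, fell by 2.56 ± 0.34 (adjusted p = 0.00127). Against CD157-CD200- cells Gch1 rose by 1.31 ± 0.21 in CD157+CD200+ (adjusted p = 0.00206) and by 0.79 ± 0.21 in CD157-CD200+ cells (adjusted p = 0.0382). Gchfr likewise fell by 3.30 ± 0.20 in CD157+CD200+ cells (adjusted p = 4.18e-06) and by 2.71 ± 0.20 in CD157-CD200+ cells (adjusted p = 1.91e-05), each against CD157-CD200- cells. Nostrin, whose product binds and traffics the synthase, fell by 1.10 ± 0.25 in EC-SP (adjusted p = 0.0166). Against CD157-CD200- cells it fell by 1.99 ± 0.33 in CD157+CD200+ (adjusted p = 0.00252) and by 2.48 ± 0.33 in CD157-CD200+ cells (adjusted p = 0.000803).

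**Figure D4:**
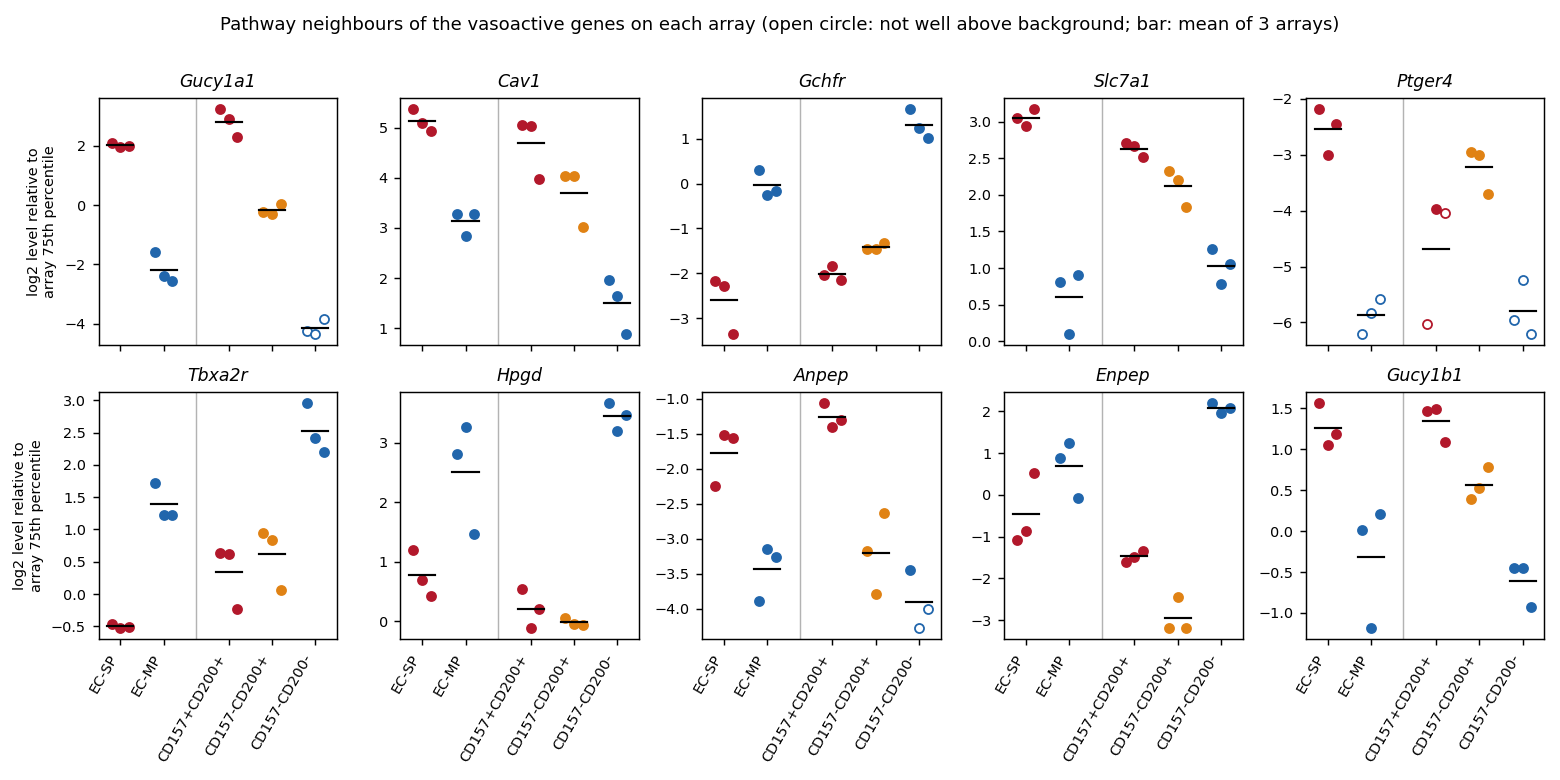
Log2 level (vertical axes, relative to the array's 75th percentile) of 10 genes from the nitric oxide, prostanoid, kinin and angiotensin lists on the 3 arrays of each group. Open circles mark arrays on which the probe was not well above background, bars are means of 3 arrays, and the vertical line parts the EC-SP and EC-MP arrays from the subset arrays. Gucy1a1 falls into 3 steps across the subsets, and Gchfr, Tbxa2r and Hpgd are highest in CD157-CD200- cells.

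Among the peptidases and receptors of the kinin and angiotensin list, 23 genes, 13 were tested in EC-SP against EC-MP and 14 in the subsets. Ace and Bdkrb2 aside, 2 of 11 rose and 2 fell in EC-SP. In CD157+CD200+ set against CD157-CD200- cells 3 of 12 rose and 3 fell, in CD157-CD200+ set against CD157-CD200- cells 2 rose and 2 fell, and between the CD200+ subsets 2 rose. The shares over all features, higher and lower, were 9.15% and 7.39%, 8.12% and 7.11%, 6.31% and 5.52%, and 0.802% and 0.245%, in that order.

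Enpep, the aminopeptidase that trims angiotensin II, was lower in both CD200+ subsets. It measured -1.60, -1.48 and -1.34 in CD157+CD200+ cells, -3.18, -2.45 and -3.20 in CD157-CD200+ cells, and 2.19, 1.96 and 2.08 in CD157-CD200- cells. The 3 subsets did not overlap, and the differences from CD157-CD200- cells were -3.55 ± 0.23 (adjusted p = 5.36e-06) for CD157+CD200+ and -5.02 ± 0.23 (adjusted p = 8.59e-07) for CD157-CD200+ cells. Anpep, aminopeptidase N, rose by 1.66 ± 0.30 in EC-SP (adjusted p = 0.00579). Anpep also rose in CD157+CD200+ cells, by 2.65 ± 0.31 against CD157-CD200- cells (adjusted p = 0.000289) and by 1.94 ± 0.31 against CD157-CD200+ cells (adjusted p = 0.0178). The value against CD157-CD200- cells rests in part on signals at background, since Anpep was not well above background on their replicates 2 and 3. Prcp, a peptidase that also cleaves angiotensin II, rose by 0.98 ± 0.22 in EC-SP (adjusted p = 0.0161), and Xpnpep1, an aminopeptidase that cleaves bradykinin, fell by 0.83 ± 0.22 (adjusted p = 0.0311). In CD157+CD200+ set against CD157-CD200- cells both were called with the block alone, Prcp at 0.70 ± 0.28 (adjusted p = 0.136 without it and 0.0132 with it) and Xpnpep1 at -0.64 ± 0.27 (0.169 and 0.00641). Cpd, a carboxypeptidase, rose by 0.72 ± 0.21 in CD157+CD200+ (adjusted p = 0.0424) and by 0.95 ± 0.21 in CD157-CD200+ cells (adjusted p = 0.0135), each against CD157-CD200- cells. Mas1, the gene of a receptor for angiotensin fragments, was at least 1.68-fold (adjusted p = 0.0142) and at least 1.72-fold higher (adjusted p = 0.0148) in the same comparisons. Neither gene was called in EC-SP. Kng1, the kininogen gene that hepatocytes express, fell by 2.28 ± 0.53 in CD157+CD200+ (adjusted p = 0.0169) and by 2.15 ± 0.53 in CD157-CD200+ cells (adjusted p = 0.0274), each against CD157-CD200- cells. It fell by 1.77 ± 0.50 in EC-SP (adjusted p = 0.042, or 0.0513 with the block). Kng1 was not well above background on EC-SP replicates 1 and 3 or on replicate 1 of either CD200+ subset. These sizes thus rest in part on signals at background.

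Markers of other cell types moved in some of the same comparisons, and their part in the values above was not tested. For all marker counts, the shares over all features were 9.15% higher and 7.39% lower in EC-SP. They were 8.12% and 7.11% in CD157+CD200+ and 6.31% and 5.52% in CD157-CD200+ cells, each against CD157-CD200- cells. Of the smooth muscle and pericyte markers 3 of 9 tested rose in EC-SP, 4 of 10 in CD157+CD200+ and 5 of 10 in CD157-CD200+ cells, the subsets each against CD157-CD200- cells, and 0 were called lower. Their summed level, in multiples of the array's 75th percentile, was 14.0 to 19.1 in EC-SP against 6.69 to 7.48 in EC-MP. It was 24.7 to 32.6 in CD157+CD200+, 24.2 to 41.3 in CD157-CD200+ and 7.01 to 9.86 in CD157-CD200- cells. Rgs5 rose by 3.75 ± 0.33 in EC-SP (adjusted p = 0.000174) and by 3.84 ± 0.27 in CD157+CD200+ set against CD157-CD200- cells (adjusted p = 9.02e-06). The others that rose were Mylk and Notch3 in all 3 comparisons, Pdgfrb in both CD200+ subsets and Acta2 in CD157-CD200+ cells. In CD157+CD200+ cells Mylk rose by 2.28 ± 0.19, Pdgfrb by 4.79 ± 0.75 and Notch3 by 3.05 ± 0.45, while Acta2 (0.23 ± 0.27) and Myh11 (0.83 ± 0.65) were not called. In CD157-CD200- cells Notch3 was not well above background on replicates 1 and 3, and Pdgfrb on replicate 1. The sizes for Notch3 and Pdgfrb thus rest in part on signals at background. In CD157-CD200+ cells Acta2 rose by 1.28 ± 0.27 (adjusted p = 0.0135) and Myh11 differed by 1.77 ± 0.65 (adjusted p = 0.129, or 0.014 with the block). Of the cholangiocyte markers 6 of 8 rose in EC-SP, with a summed level of 9.95 to 13.0 against 2.26 to 3.11 in EC-MP, and 0 of 8 were called in any subset comparison.

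Hepatocyte and Kupffer cell markers were lower in the CD200+ subsets. Of the hepatocyte markers 9 of 11 fell in CD157+CD200+ and 11 of 11 in CD157-CD200+ cells, each against CD157-CD200- cells, while in EC-SP 3 of 10 rose and 2 fell. Their summed level was 10.2 to 13.1 in CD157+CD200+, 9.14 to 11.0 in CD157-CD200+ and 27.5 to 43.4 in CD157-CD200- cells. Of the Kupffer cell and macrophage markers 3 of 8 fell in EC-SP, 6 of 10 fell in CD157+CD200+ and 5 of 10 in CD157-CD200+ cells. The summed levels were 28.0 to 31.5 in CD157+CD200+, 27.2 to 37.4 in CD157-CD200+ and 40.8 to 54.7 in CD157-CD200- cells. Among stellate cell and fibroblast markers, Hand2 and Pdgfra were not well above background in any group. 0 of 8 rose and 2 fell in EC-SP, 2 of 7 rose and 2 fell in CD157+CD200+ and 2 of 7 fell in CD157-CD200+ cells. Of the 10 endothelial markers 3 fell in EC-SP, and 1 rose and 1 fell in CD157+CD200+ set against CD157-CD200- cells. Other leukocyte markers had 0 of 5 called in EC-SP and 1 of 5 in CD157+CD200+ set against CD157-CD200- cells, and neuron and glia markers 1 of 7 and 1 of 8, all higher. Of 6 mesothelial markers Gpm6a alone was tested, with -1.29 in EC-SP against EC-MP and 5.47 in CD157+CD200+ against CD157-CD200- cells. Between the CD200+ subsets 0 markers of any of the 10 cell type lists were called, but there only 1.05% of all features were called. The median log2 difference of the lists ranged from -0.36 (platelet and megakaryocyte) to 0.92 (cholangiocyte). The part of other cells in the values of Tacr1, Bdkrb2 and Ptgs2 was not tested there either.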

How the data were processed

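RNA of 15 sorted samples was measured on one-colour Agilent arrays. Per the labels' protocols it was extracted with a column kit, amplified as cDNA and labelled with Cy3. The deposited scanner files hold background-subtracted Cy3 intensity from Agilent Feature Extraction, per the file headers version 10.10.1.1 for EC-SP and EC-MP and 11.5.1.1 for the subsets. The deposited series table holds this intensity times 1 constant per array, between 5.457 and 10.088, without a log or centring, and what the constant rests on stays unknown. For replicates 1 to 3 the medians of the table were 256.5, 299.6 and 286.1 in EC-SP, 299.5, 331.2 and 335.4 in EC-MP, 255.8, 278.4 and 252.3 in CD157+CD200+, 265.0, 293.0 and 262.8 in CD157-CD200+, and 218.3, 296.6 and 238.5 in CD157-CD200- cells.

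Control spots were left out, 110 to 213 of 59305 spots per array with outlier flags were set to missing, and none was saturated. Each value is the log2 of the processed intensity minus the array's log2 75th percentile. A probe was kept if 1 group or more had it well above background throughout, and the probe with the highest mean stood for a gene. Symbols came from the accessions in the files through RefSeq tables, for 28059 of 55681 probes. The array precision is limited by 3 arrays per group.

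Differences were tested by lmFit and eBayes of limma 3.58.1 under R 4.3.3, EC-SP and EC-MP on 6 arrays, the subsets on 9, two-sided, adjusted over all features after Benjamini and Hochberg. limma was tested on simulated arrays with known changes. Within each set a replicate number is also 1 slide and 1 scan, per the file headers. After group means were removed, arrays of the same number correlated at r of 0.273 to 0.331 (3 pairs, EC-SP and EC-MP) and 0.27 to 0.628 (9 pairs, subsets), and arrays of different numbers at -0.196 to -0.077 and -0.489 to 0.034, so the numbers pair the samples. The fit with this replicate block is given where it changes a call.

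All 10 members are reported in every comparison, with up to 4 called genes per pathway list (5 lists, members aside) and comparison by lowest adjusted p. The members and the pathway and marker lists were chosen with earlier results of these data known, and 1 pathway gene is not reported here. Alternatives were the block, normexp, quantile scaling, the 75th percentile over detected probes, the series table, 2 filters, the mean over probes, 1 fit over 15 arrays and leaving out each array. All of them except the block itself were fitted without the block. Added after the data were seen were fits without the third subset slide and with every probe on its own. Normexp used the median spot intensity.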

Additional observations from a re-analysis of the deposited data

Results flagged for a closer look

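The EC-SP minus EC-MP difference and the CD157+CD200+ minus CD157-CD200- difference were unlike for 6 genes, 2 of the 10 members among them. The test was limma's difference of differences in 1 fit over 15 arrays. Over all 25062 features 5.04% were called by it (12.7% with the replicate block). The sort cannot be told apart here from the scanner, slides and software version, which differ between the sets of arrays. For the members Edn1 (-6.722) and Ptgs1 (-2.224) the call held in all 23 alternatives, with values of -7.015 to -5.673 and -2.415 to -2.01.

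For 4 pathway genes the same test was called, and being called in some comparison was the condition for naming them. Members aside, they were 1 of 3 tested endothelin, 1 of 13 kinin and angiotensin and 2 of 22 nitric oxide genes. On the prostanoid list 0 of 14 and on the tachykinin list 0 of 2 were called. Gucy1a1 gave -2.756, with 4.20 in EC-SP against EC-MP and an excess of at least 109-fold in CD157+CD200+ cells, and the call held in 21 of 22 alternatives. Enpep gave 2.396 and was called in 19 of 23. Ddah1, which degrades an inhibitor of nitric oxide synthases, gave -1.417 and was called in 14 of 23 alternatives. Its -0.55 in EC-SP against EC-MP was not called (limma adjusted p = 0.132, or 0.0853 with the block). Its 0.86 in CD157+CD200+ against CD157-CD200- cells was called with the block alone (0.0625 without it and 0.00117 with it). In CD157-CD200+ against CD157-CD200- cells Ddah1 rose by 1.25 ± 0.27 (adjusted p = 0.0143). Ednra gave -2.102 and was called in 8 of 22 (adjusted p = 0.0366, or 0.0549 with the replicate block), its signal being at background on the EC-SP, EC-MP and CD157-CD200- arrays.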

How the results depend on the processing

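Of the 25 calls on members in the 4 comparisons and in the difference between the sorts, 16 were kept under every alternative that tested them. These were Ptgs1, Ptgs2, Ace, Bdkrb2 and Tacr1 in EC-SP against EC-MP, Edn1, Ptgs2, Ace, Bdkrb2 and Tacr1 in CD157+CD200+ against CD157-CD200- cells, Bdkrb2 and Tacr1 between the CD200+ subsets, Edn1 and Ace in CD157-CD200+ against CD157-CD200- cells, and Edn1 and Ptgs1 between the sorts. With the replicate block the features called were 6923 in CD157+CD200+ against CD157-CD200- cells (3609 without it), 725 between the CD200+ subsets (248), 5280 in CD157-CD200+ against CD157-CD200- cells (2805), 6350 by the F test (3297) and 3190 between the sorts (1263, with 4 members in place of 2). It changed no other call on a member than those given above. Among the pathway genes it also called Cav1 (adjusted p = 0.00608), Hpgd (0.0275) and Slc7a1 (0.0462) between the sorts, Ddah1 in CD157+CD200+ (0.00117) and Xpnpep1 in CD157-CD200+ (0.0428) against CD157-CD200- cells. Restricting the fits to probes that every array detected, which leaves out Bdkrb2, Tacr1 and Ptgs2 (in the subsets also Ptgis), left 3 members called in place of 6 in EC-SP, 5 in place of 8 in CD157+CD200+ against CD157-CD200- cells and 0 in place of 3 between the CD200+ subsets, where 159 features were called. Normexp called 376 features there and 4 members between the sorts. Without a filter on dim probes 2284 features in place of 3966 were called in EC-SP and 3 members in place of 6 in CD157-CD200+ against CD157-CD200- cells, as many as without the third subset slide, which left 65 features called between the CD200+ subsets. Leaving out 1 array gave 103 to 262 features and 2 to 3 members between the CD200+ subsets, 2 to 6 members in CD157-CD200+ against CD157-CD200- cells and 2 to 4 between the sorts. The series table split the calls of EC-SP against EC-MP into 1649 higher and 2495 lower, in place of 2194 and 1772, with a median shift of -0.166, and those between the sorts into 384 and 938, in place of 520 and 743. No member changed its direction or call in the first of these. Signs turned only for uncalled differences: without 1 array the range was -0.473 to 0.244 for Ece1 in EC-SP, -0.071 to 0.237 for Ptgs1 in CD157+CD200+ against CD157-CD200- cells, -0.269 to 0.179 for Ece1 between the CD200+ subsets, -1.489 to 1.086 for Ptgis and -0.16 to 0.13 for Bdkrb2 in CD157-CD200+ against CD157-CD200- cells, and -0.27 to 0.092 for Nos3, -0.36 to 1.73 for Ptgis and -0.168 to 0.587 for Tacr1 between the sorts. Normexp turned Ptgis (0.007) and Bdkrb2 (-0.004) between the CD157- subsets, as leaving out the third slide did Bdkrb2 (-0.18). The causes were not tested. The third-slide alternative was chosen after seeing the data. Signal over background limits the folds of the members Bdkrb2, Tacr1, Ptgis and Ptgs2. Where a group had arrays at background, it also limits the pathway genes Ednra, Ptger4, Mas1, Gucy1a1, Kng1, Anpep and Pla2g4a.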

Other observations

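Across the 15 arrays, with each gene centred within its set of arrays, the genes most like each member were named among 13627 genes. These correlations describe 5 groups more than 15 independent points, and arrays of 1 slide share its scan. Tacr1 was most like Slco2b1, an organic anion carrier (r = 0.991), and Bst1, the CD157 gene itself (r = 0.974). Bdkrb2 was most like Itih5 (r = 0.976) and the junctional gene Jam3 (r = 0.973), and Ptgs2 was most like the tubulin gene Tubb6 (r = 0.988) and the protease gene Adamts4 (r = 0.987). Edn1 was most like Ctsh, a lysosomal protease gene (r = 0.995), and the growth factor gene Tgfb2 (r = 0.99). Ace was most like Ptprj and Sncg (r = 0.984 each), Nos3 most like Iqgap1 (r = 0.972) and Wdr37 (r = 0.965), and Ptgs1 most like the retinoic acid receptor gene Rarb (r = 0.975) and Khdrbs3 (r = 0.971). Ednrb, Ece1 and Ptgis had lower highest values, with Ergic3 (r = 0.939), Dbt (r = 0.918) and Supt20 (r = 0.904). Among the members themselves the highest values were those of Bdkrb2 with Tacr1 (r = 0.97), Ptgs2 with Bdkrb2 (r = 0.95) and Ptgs2 with Tacr1 (r = 0.93).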
